A study of Homo sapiens with 6 samples.

Results

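The BCL2 family genes described here are 10 regulators of mitochondrial apoptosis: the anti-apoptotic genes BCL2, BCL2L1 and MCL1, the effectors BAX and BAK1, and the BH3-only genes BBC3, PMAIP1, BID, BCL2L11 and BIK. They were chosen by name, by matching the Ensembl identifiers of the count table to these symbols, and make up 10 of the 60664 genes in the table. All of them were found, all entered the test, and each had a mean over the libraries of 1 CPM or more (counts scaled to a common library total).

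The data are gene-level read counts of polyadenylated RNA from U-2 OS, a human osteosarcoma cell line labelled polyploid. In siControl, 3 libraries came from cells transfected with a control siRNA. In siSFPQ, 3 libraries came from cells transfected with siRNA against SFPQ, a nuclear RNA- and DNA-binding protein. Both groups received siRNA at 30 nM with the same transfection reagent, so lipid transfection is common to them. The knock-down is transient and was made in a single cell line, and neither the SFPQ siRNA used for these libraries nor the time from transfection to RNA extraction is given in the sources used here. The comparison asks how loss of SFPQ alters transcript levels in these cells.

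In mitochondrial apoptosis, BAX and BAK1 form pores in the outer mitochondrial membrane and release cytochrome c, which starts caspase activation. BCL2, BCL-xL (the long product of BCL2L1) and MCL1 bind and restrain them. BH3-only proteins answer to stress by occupying the anti-apoptotic proteins or by activating the effectors directly, and the balance of these groups is widely studied in tumor cells. Much of that control acts on the proteins, which were not measured here.

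Total counts ranged from 46142855 to 47119203 per library in siControl and from 43469321 to 45543610 in siSFPQ. SFPQ itself had 22338, 23139 and 21753 counts in siControl and 3140, 3863 and 3151 in siSFPQ (log2 fold change -2.73, adjusted p = 6.34e-30, edgeR quasi-likelihood test). Of 9 osteosarcoma and mesenchymal markers, 5 reached 1 CPM (COL1A1, VIM, SPARC, RUNX2 and ALPL). The 9 summed to 5904 to 6113 CPM in siControl and 5581 to 5617 CPM in siSFPQ. COL1A2 had a mean of only 0.964 CPM, against 2588 CPM for COL1A1. The late osteoblast markers SP7, IBSP and BGLAP were at or near 0. BGLAP had 0, 0 and 1 counts in siControl and 5, 6 and 6 in siSFPQ (adjusted p = 0.0199, edgeR), too few for a fold to be given. Of 7 blood, endothelial and epithelial markers, EPCAM and CDH1 reached 1 CPM, and the 7 summed to 7.04 to 8.62 CPM in siControl and 7.79 to 8.85 CPM in siSFPQ. Single markers moved within these sums: PTPRC had a log2 fold change of -1.61, CDH5 of 1.39 and CDH1 of 0.76, and COL1A1 of -0.35, SPARC of -0.17 and VIM of 0.32, all with an adjusted p under 0.05 (edgeR). The part of these markers in the results was not tested.

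All 10 genes passed an adjusted p of 0.05 (edgeR quasi-likelihood test with Benjamini-Hochberg adjustment over 29022 genes). In siSFPQ, 7 rose (BIK, BBC3, PMAIP1, MCL1, BAK1, BAX and BCL2L1) and 3 fell (BID, BCL2 and BCL2L11). Of all genes tested, 22.4% rose and 22.1% fell at the same threshold. Among the 15651 genes with a mean of at least 1 CPM, 30.2% rose and 34.4% fell, so a change at this threshold was common at the family's expression levels. The median log2 fold change of the 10 genes was 0.25, against -0.02 over genes of at least 1 CPM, and the median size of the change, whatever its direction, was 0.32 against 0.27. Only BIK of the 10 also passed a log2 fold change of 1.5, which 5.54% of all genes tested did in the upward direction and 4.77% did downward. The libraries of the 2 groups did not overlap in normalized counts (counts scaled by TMM effective library size) for 9 of the 10 genes, with BCL2L1 the exception. Over genes of at least 1 CPM, the groups were apart in 32.8% with siSFPQ higher and in 36.8% with siSFPQ lower. In bulk RNA, fewer cells expressing a gene and less RNA per cell cannot be told apart.

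**Figure D1:**
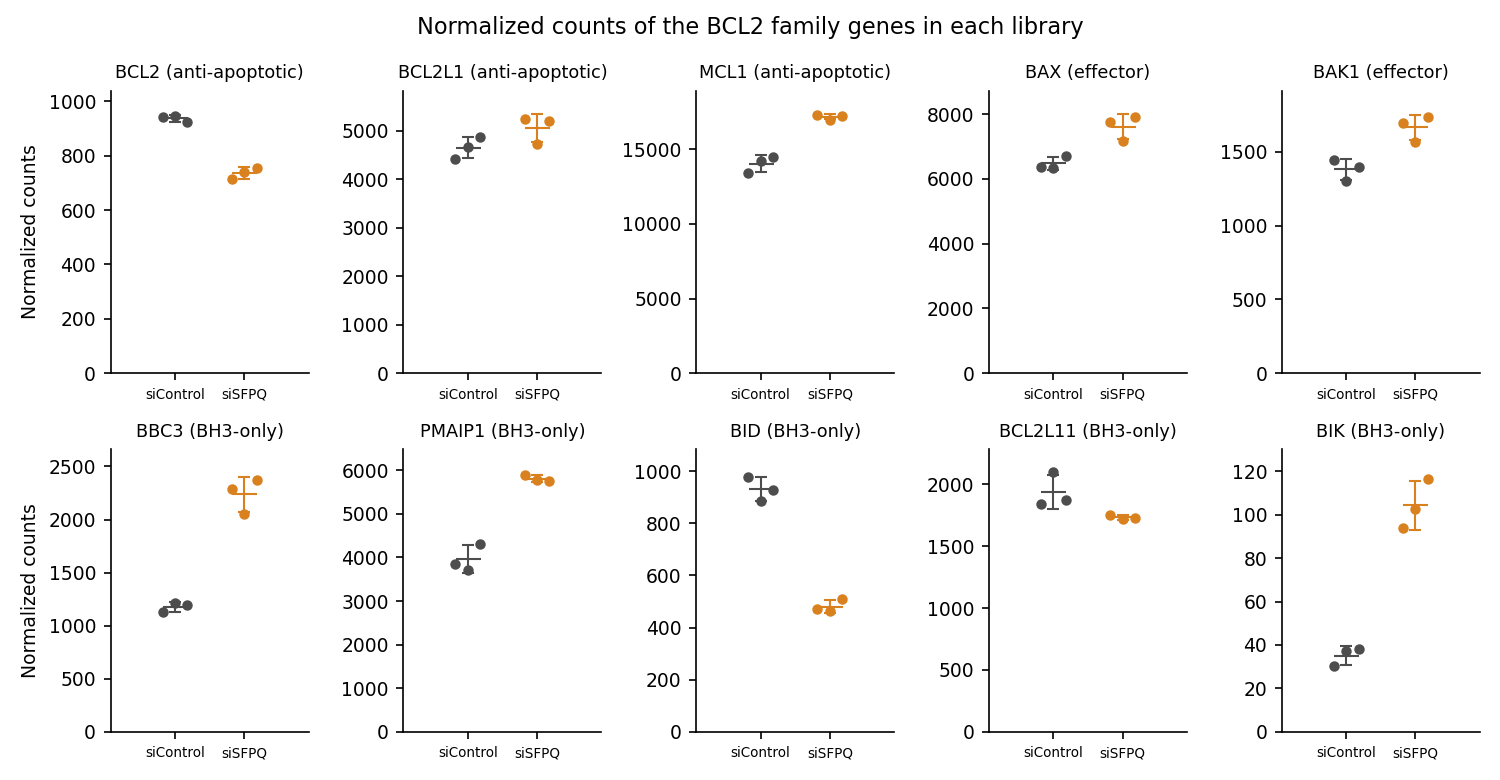
Normalized counts of the 10 BCL2 family genes in each library, 1 panel per gene with its own axis from 0, siControl in grey and siSFPQ in orange. Points are libraries, horizontal bars are means and error bars are SD (n = 3). BBC3, PMAIP1 and BIK sit clearly higher in siSFPQ and BID sits lower, while the BCL2L1 points of the groups overlap.

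Among the anti-apoptotic genes, MCL1 rose 1.22-fold and BCL2 fell to 0.784 of its siControl level, while the BCL2L1 libraries of the groups overlapped. MCL1 (ENSG00000143384, chromosome 1, 150560895 to 150579738 of GRCh38, minus strand) encodes a short-lived guardian that binds BAK1 and several BH3-only proteins. Its counts were 13379, 14231 and 14429 in siControl and 16783, 17373 and 17485 in siSFPQ. Every siSFPQ library was above every siControl library, although the siSFPQ libraries were the smaller ones in total counts. The normalized count went from 14034 ± 558 to 17185 ± 163 (SD, n = 3), a log2 fold change of 0.29 (SE 0.037, adjusted p = 3.67e-08, edgeR).

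BCL2 (ENSG00000171791, chromosome 18, 63123346 to 63320128, minus strand) encodes the founding member of the family. Its counts were 942, 947 and 921 in siControl and 691, 757 and 764 in siSFPQ. The groups did not overlap, and the normalized count fell from 938 ± 12.8 to 736 ± 20.9 (SD, n = 3; log2 fold change -0.35, SE 0.066, adjusted p = 4.15e-05, edgeR). With a span of 197 kb, introns included, it is the longest of the 10 genes, followed by BCL2L1 with 59.5 kb.

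BCL2L1 (ENSG00000171552, chromosome 20, 31664452 to 31723989, minus strand) had 4419, 4658 and 4863 counts in siControl and 5093, 4830 and 5277 in siSFPQ. The normalized counts were 4654 ± 224 and 5061 ± 291 (SD, n = 3), and the ranges of the groups overlapped. The log2 fold change was 0.12 (SE 0.044, adjusted p = 0.0252, edgeR), and the call was lost without siControl library 1 (0.09, adjusted p = 0.149), without siSFPQ library 1 (0.11, adjusted p = 0.0981) or without siSFPQ library 3 (0.11, adjusted p = 0.0741). Splicing of this gene yields the anti-apoptotic BCL-xL and the pro-apoptotic BCL-xS, and MCL1 and BCL2L11 also have products of differing activity, which gene-level counts cannot separate. The exons of BCL2L1 share 1735 bases with ABALON on the opposite strand, which had at most 2 counts in any library.

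Both pore-forming effectors rose, by amounts near the median size of change of 0.27 over genes of at least 1 CPM. BAX (ENSG00000087088, chromosome 19, 48954815 to 48961798, plus strand), a cytosolic protein that inserts into mitochondria on activation, had 6361, 6342 and 6690 counts in siControl and 7520, 7323 and 8008 in siSFPQ. BAK1 (ENSG00000030110, chromosome 6, 33572547 to 33580293, minus strand), which resides in the outer mitochondrial membrane, had 1442, 1304 and 1391 counts against 1643, 1603 and 1757. For both genes, each siSFPQ library was above each siControl library. The log2 fold change of BAX was 0.23 (SE 0.041, adjusted p = 1.28e-05, edgeR) and that of BAK1 was 0.27 (SE 0.056, adjusted p = 0.000135, edgeR). In normalized counts, BAX went from 6474 ± 203 to 7607 ± 389 and BAK1 from 1381 ± 71.4 to 1665 ± 86.0 (SD, n = 3).

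Among the 10 genes, the BH3-only genes held the 4 largest changes. BIK, BBC3 and PMAIP1 were higher and BID lower in siSFPQ, while BCL2L11 was slightly lower. To place these genes beside their regulatory sequence, the 250 bases before a RefSeq start are printed for BBC3, PMAIP1, BID and BAK1. BID has several such starts, and the stretch of a single one is printed. The gene positions in this text are from GENCODE. By these, the BID stretch lies within the gene, and those of BBC3 and BAK1 overlap it in part. BBC3 and PMAIP1 rose, while BID fell. Of the 10 genes, only BAK1 had a window that held an exact match to the p53 half-site pattern. Sequences are from RefSeq on GRCh38.p14, 5′ to 3′ on the strand of the gene. Capitals mark a CCAAT box (CCAAT, found here as its reverse complement) in BBC3 (chr19:47232668-47232917, minus strand), GC boxes (GGGCGG or its reverse complement) in PMAIP1 (chr18:59899746-59899995, plus strand) and BID (chr22:17774496-17774745, minus strand), and the p53 half-site in BAK1 (chr6:33580277-33580526, minus strand).
BBC3: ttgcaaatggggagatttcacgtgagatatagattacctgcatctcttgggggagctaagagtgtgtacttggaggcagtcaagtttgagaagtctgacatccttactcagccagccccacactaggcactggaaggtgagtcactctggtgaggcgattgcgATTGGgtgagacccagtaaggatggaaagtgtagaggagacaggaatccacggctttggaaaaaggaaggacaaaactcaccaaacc
PMAIP1: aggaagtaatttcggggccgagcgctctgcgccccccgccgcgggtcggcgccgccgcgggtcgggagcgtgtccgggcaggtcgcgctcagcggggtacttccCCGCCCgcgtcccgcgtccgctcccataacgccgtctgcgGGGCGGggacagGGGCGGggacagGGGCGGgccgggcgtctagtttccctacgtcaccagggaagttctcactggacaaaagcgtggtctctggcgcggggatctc
BID: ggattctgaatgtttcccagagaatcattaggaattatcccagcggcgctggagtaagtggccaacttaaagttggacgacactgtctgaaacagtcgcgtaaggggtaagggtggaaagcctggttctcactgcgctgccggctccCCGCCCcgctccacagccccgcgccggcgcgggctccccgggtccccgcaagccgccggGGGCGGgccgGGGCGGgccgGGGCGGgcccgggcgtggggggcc
BAK1: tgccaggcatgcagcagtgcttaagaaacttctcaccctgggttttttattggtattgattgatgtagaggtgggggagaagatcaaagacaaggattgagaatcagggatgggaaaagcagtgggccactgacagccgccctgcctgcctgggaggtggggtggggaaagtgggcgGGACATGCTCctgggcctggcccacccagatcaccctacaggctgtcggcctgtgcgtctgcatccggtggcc

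Windows of 300 bases, 250 before the start and 50 from it on, were present for 8 of the 10 genes, in 13 windows, as BCL2L1 and BID have several starts. MCL1 and BIK were not matched. Both strands were searched for 8 motifs. A GC box was in a window of 6 of the 8 genes and in 45% of all 35116 windows of this length. The PMAIP1 and BID stretches printed held 4 each. PMAIP1 rose and BID fell, and the part of GC boxes in these changes was not tested. A CCAAT box was in 4 of the 8 genes (BAX, BAK1, BBC3 and BCL2L11) and in 34.6% of all windows. The counts of genes take a match in any window of a gene, while the shares are per window. Genes with several windows have more room for a match, so counts and shares are not directly comparable. The p53 half-site of BAK1 was the only exact match to its pattern (RRRCWWGYYY) in the 13 windows, and such a match occurs in 6.63% of all windows. The BAK1 half-site begins 73 bases before the start and shares 1 base with a GC box. BBC3 alone held the core of the interferon-stimulated response element (GAAA, any 2 bases, GAAA, in 3.57% of all windows), as 2 overlapping copies within the 50 bases from the start on, in GAAACTGAAAAAGAAA (chr19:47232627-47232642, minus strand, all of it matched). The TATA motif TATAAA (11.5% of all windows) was found in BCL2L1 only, while the CRE TGACGTCA (1.85%), the ATF4 element TGATGCAA (0.866%) and the E2F site TTTCCCGC (1.63%) were in none of the 13 windows. These are exact matches of letters, not sites of binding. Elements that differ from a pattern were not counted, so a window without a match may still hold a site.

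BBC3 (PUMA, ENSG00000105327, chromosome 19, 47220822 to 47232766, minus strand), a p53 target that binds all anti-apoptotic members, had 1125, 1213 and 1190 counts in siControl and 2214, 2096 and 2408 in siSFPQ. The lowest siSFPQ library was far above the highest siControl library. The normalized count rose from 1178 ± 44.9 to 2237 ± 167 (SD, n = 3), a log2 fold change of 0.92 (SE 0.056, adjusted p = 1.28e-15, edgeR), higher than that of 95.0% of genes of at least 1 CPM.

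PMAIP1 (NOXA, ENSG00000141682, chromosome 18, 59899996 to 59904305, plus strand) encodes a small protein that binds mainly MCL1 and is induced by p53 and by stress. It had 3845, 3716 and 4308 counts in siControl and 5718, 5904 and 5835 in siSFPQ. The groups were well apart, and the siSFPQ libraries lay close together. The normalized count rose from 3963 ± 317 to 5810 ± 76.5 (SD, n = 3; log2 fold change 0.55, SE 0.045, adjusted p = 2.17e-12, edgeR), above 88.9% of genes of at least 1 CPM.

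BIK (ENSG00000100290, chromosome 22, 43110750 to 43129712, plus strand), a BH3-only protein of the endoplasmic reticulum, had 30, 37 and 38 counts in siControl and 91, 105 and 118 in siSFPQ. Among the 10 genes it had the largest fold change and the fewest counts, with a mean of 1.54 CPM. The normalized count rose from 35.1 ± 4.36 to 104 ± 11.4 (SD, n = 3), a 2.97-fold change with 2.23 to 3.96 as the interval of 1.96 SE on each side (log2 fold change 1.57, SE 0.21, adjusted p = 1.41e-07, edgeR). Its place past the log2 fold change of 1.5 depended on single libraries, since it was 1.47 without siControl library 1 and just under 1.5 without siSFPQ library 3.

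BID (ENSG00000015475, chromosome 22, 17734138 to 17774770, minus strand), which caspase-8 cleaves to link death receptors to mitochondria, had 977, 887 and 926 counts in siControl and 455, 472 and 517 in siSFPQ. All siSFPQ libraries were far below the lowest siControl library. The normalized count fell from 931 ± 46.0 to 480 ± 25.9 (SD, n = 3), a log2 fold change of -0.96 (SE 0.075, adjusted p = 8.83e-13, edgeR), lower than that of 92.3% of genes of at least 1 CPM.

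BCL2L11 (BIM, ENSG00000153094, chromosome 2, 111119378 to 111168444, plus strand), an activator of BAX and BAK1, had 1838, 2098 and 1868 counts in siControl and 1700, 1756 and 1754 in siSFPQ. The groups did not overlap, but siControl library 2 stood above the rest. The log2 fold change was -0.16 (SE 0.053, adjusted p = 0.0128, edgeR) and was not called without siControl library 2 (-0.10, adjusted p = 0.152), without siSFPQ library 3 (-0.15, adjusted p = 0.0504) or with library size alone as the scaling (-0.10, adjusted p = 0.128). Its exons share 727 bases, 10.8% of their length, with MIR4435-2HG on the opposite strand. That gene had 5802, 6082 and 5857 counts in siControl and 967, 1006 and 1175 in siSFPQ (log2 fold change -2.50, adjusted p = 1.3e-28, edgeR). The study used a stranded mRNA library kit, but the strand setting of the counting is not given in the sources used here. The part of MIR4435-2HG in the BCL2L11 value was not tested. MCL1 shares 43 bases with ADAMTSL4 on the opposite strand, which rose by 1.82 on the log2 scale and whose part in the MCL1 value was not tested. It also shares 328 bases, 5.27% of its exon length, with ADAMTSL4-AS1 on the same strand, which had at most 6 counts in any library. BAK1 shares 91 bases with GGNBP1, which had at most 7 counts, and BBC3 shares 80 bases with MIR3190 and 76 with MIR3191, both at 0 counts. BAX, PMAIP1, BIK, BID and BCL2 share no exon bases with another gene.

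Levels of different genes were compared per length, as CPM divided by the length of the merged exons in kilobases (RPKM). In siControl, BAX was the most abundant at 53.5 ± 1.61 RPKM (SD, n = 3), followed by MCL1 at 48.2 ± 1.49, PMAIP1 at 38.8 ± 3.05 and BCL2L1 at 23.7 ± 0.971. BAK1 came next at 13.4 ± 0.811 RPKM, then BBC3 at 7.91 ± 0.223, BCL2L11 at 6.14 ± 0.399, BID at 4.51 ± 0.267, BCL2 at 1.59 ± 0.0298 and BIK at 0.788 ± 0.091. No neighbors in this order overlapped between libraries. Among the listed anti-apoptotic members, MCL1 therefore carried 65.6 ± 0.281% of the summed level and BCL2 2.17 ± 0.111%. This sum leaves out other anti-apoptotic genes such as BCL2L2, which had 37.4 CPM in siControl against 20.1 for BCL2.

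In siSFPQ, the order of the upper 7 genes was the same, with BAX at 65.7 ± 3.06 RPKM, MCL1 at 61.7 ± 0.351 and PMAIP1 at 59.4 ± 0.783 (SD, n = 3). BIK moved from the last place to the eighth at 2.45 ± 0.262 RPKM, level with BID at 2.43 ± 0.122 (their libraries overlapped) and above BCL2 at 1.30 ± 0.0374. BBC3 reached 15.7 ± 1.10 RPKM, and its libraries overlapped those of BAK1 at 16.8 ± 0.794. The length used sets part of this order, since with the longest transcript in place of merged exons BBC3 ranked above BAK1 in both groups, and BID at 4.30 RPKM ranked above BIK at 2.45 in siSFPQ. That length also moved siControl levels by over 1.5 times, to 102 RPKM for BAX, 13.6 for BBC3, 7.99 for BID and 2.69 for BCL2.

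**Figure D2:**
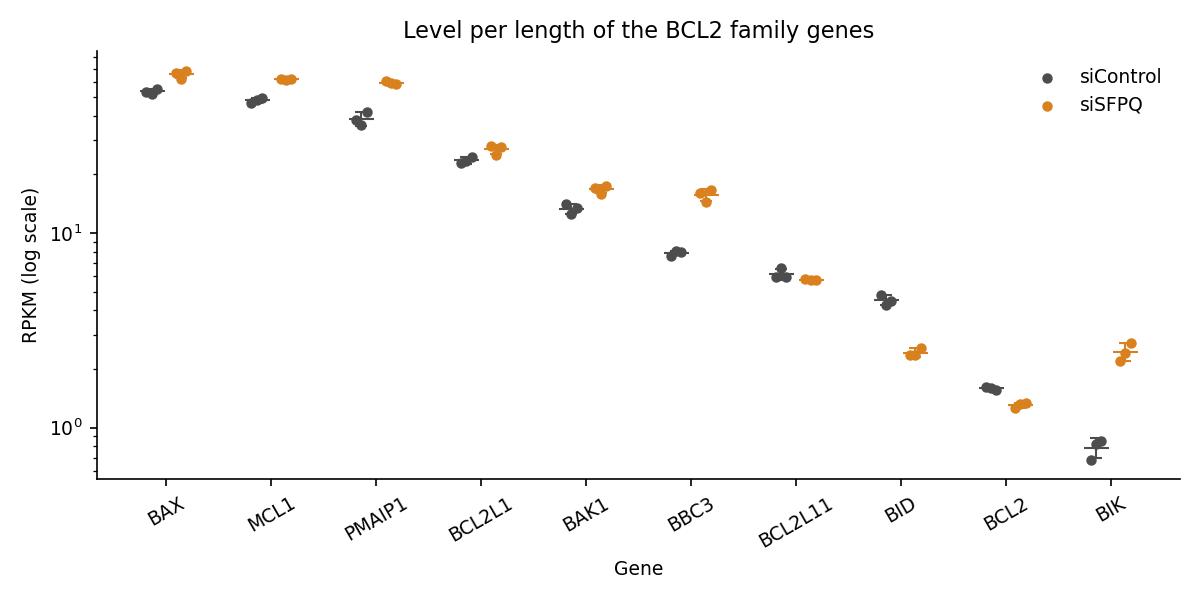
Level per length (RPKM, log axis) of the 10 genes, ordered by the siControl mean, with siControl in grey and siSFPQ in orange. Points are libraries and bars are means ± SD (n = 3). In siControl the genes run from 53.5 RPKM for BAX to 0.788 for BIK, and in siSFPQ BIK reaches the level of BID with merged exons, though not with the longest transcript (2.45 against 4.30 RPKM).

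Ratios of levels within a library are given as descriptions with no test, and not all of them shifted. BAX over BCL2 was 32.9, 32.6 and 35.4 in siControl and 53.1, 47.2 and 51.1 in siSFPQ, and the groups were apart. BAX over BCL2L1 was 2.26 ± 0.0674 in siControl and 2.44 ± 0.0378 in siSFPQ (SD, n = 3). BCL2L11 over MCL1 was lower in siSFPQ, at 0.0935, 0.0933 and 0.0926 against 0.127, 0.136 and 0.119. The sums that follow cover only the listed members of each class, so they are not whole-class balances. They leave out genes such as the anti-apoptotic BCL2L2 and the BH3-only BMF, HRK and BAD. The effector-like BOK is also left out, at 74.8 CPM in siControl against 29.5 for BAK1. The summed anti-apoptotic level over the summed effector level overlapped between the groups, at 1.10 ± 0.0442 and 1.09 ± 0.0326, or 0.861 ± 0.0309 and 0.855 ± 0.0260 with the longest transcript. Over the summed BH3-only level it was 1.24, 1.32 and 1.24 in siControl and 1.05, 1.04 and 1.05 in siSFPQ. Within the BH3-only sum, BBC3 made up 13.6 ± 0.757% in siControl and 18.3 ± 1.06% in siSFPQ, and BID 7.77 ± 0.556% and 2.83 ± 0.129%. PMAIP1 made up 66.6 ± 2.02% and 69.3 ± 1.22%, and its libraries overlapped between the groups. With the longest transcript, the shares in siControl and siSFPQ were 18.2% and 24.7% for BBC3, 59.4% and 62.3% for PMAIP1, and 10.7% and 3.92% for BID.

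**Figure D3:**
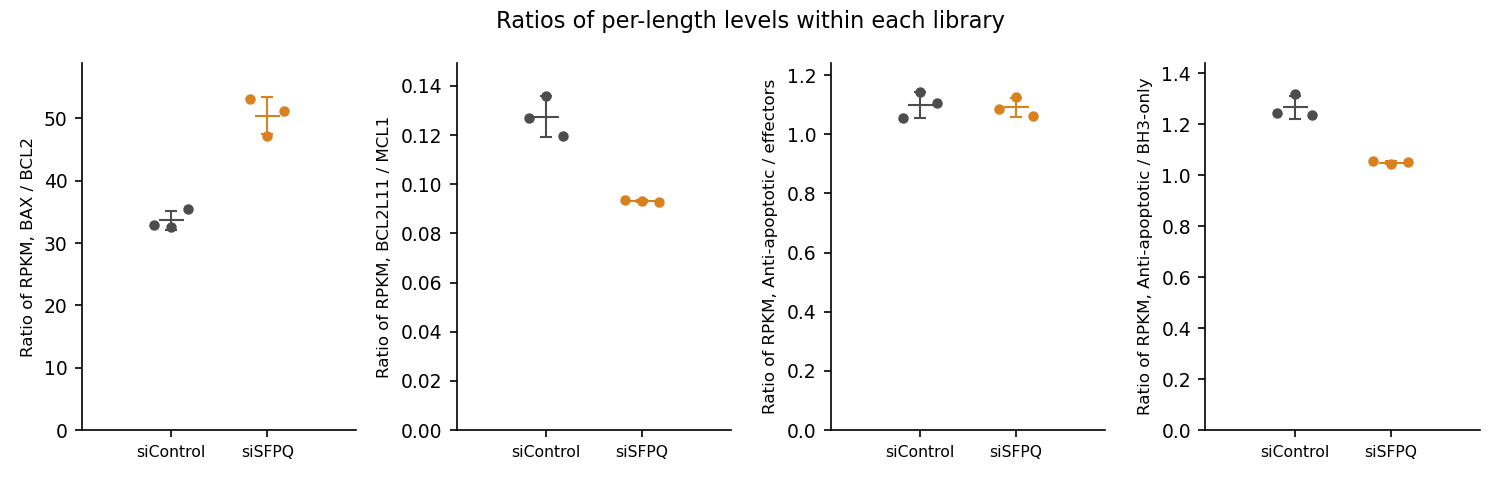
Ratios of RPKM within each library, each on its own axis from 0. They are BAX over BCL2, BCL2L11 over MCL1, and the summed anti-apoptotic genes over the effectors and over the BH3-only genes. Sums cover only the 10 listed genes. Points are libraries and bars are means ± SD (n = 3). The groups are apart in every panel but the anti-apoptotic to effector ratio.

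Of 13 other BCL2 family genes, 3 rose, 3 fell and 7 did not pass the test, with a median log2 fold change of -0.05. Beside this and the list counts below, 22.4% of all genes tested rose and 22.1% fell. Among genes of at least 1 CPM these shares were 30.2% and 34.4%. BCL2A1, an anti-apoptotic member and NF-kB target, rose from 11, 10 and 20 counts to 49, 63 and 82 (log2 fold change 2.22, SE 0.31, adjusted p = 3.5e-07, edgeR). BCL2L10 was at 0 counts throughout siControl, against 3, 5 and 2 counts in siSFPQ, close to the floor of 3 counts, so no fold is given (adjusted p = 0.0256, edgeR). BCL2L13 rose by 0.17 on the log2 scale. BNIP3, a mitophagy receptor, fell from 3961 ± 197 to 2355 ± 58.1 normalized counts (SD, n = 3; log2 fold change -0.75), its relative BNIP3L had a log2 fold change of -0.24, and the effector-like BOK one of -0.44. BCL2L2 had a log2 fold change of -0.11 (adjusted p = 0.0722, edgeR), and among the remaining BH3-only genes BAD had -0.12, BMF -0.05 and HRK 0.00. These 4 genes did not pass the test.

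Of 15 apoptosome and caspase genes, 5 rose, 1 fell and 9 did not pass the test (median log2 fold change 0.11). CASP10, an initiator caspase of death receptors, rose from 58.1 ± 5.35 to 114 ± 25.3 normalized counts (SD, n = 3), and CASP8, which cleaves BID, rose from 1940 ± 30.6 to 2309 ± 38.1. HTRA2 and AIFM1, which are released from mitochondria, each had a log2 fold change of 0.33. Of 8 caspase inhibitors, 3 rose and 4 fell (median -0.05). The number that fell was 3 with DESeq2 or with library size alone as the scaling. It was 3 to 4 when each library was left out in turn. BIRC3 rose from 118 ± 38.8 to 500.0 ± 31.5 normalized counts (SD, n = 3), but the study picked this gene from these libraries for its signature, so its rise is not independent evidence. BIRC7 rose by 1.40 and CFLAR by 0.34 on the log2 scale, and XIAP, the direct inhibitor of executioner caspases, had a log2 fold change of -0.45.

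Among 8 genes that control the turnover of MCL1 or BIM protein, 1 rose, 3 fell and 4 did not pass the test (median log2 fold change -0.02). BTRC, a substrate receptor of an SCF ubiquitin ligase, fell from 2120 ± 103 to 447 ± 19.4 normalized counts (SD, n = 3; log2 fold change -2.25). FBXW7, another such receptor, had a log2 fold change of -0.33, DYNLL1, which tethers BIM, -0.13, and USP9X, which removes ubiquitin from MCL1, 0.16.

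Of 10 transcription regulators of BH3-only genes, 2 rose, 4 fell and 4 did not pass the test (median log2 fold change -0.02). TP73, a p53 relative, fell from 749 ± 41.6 to 379 ± 38.5 normalized counts and DDIT3 (CHOP) from 348 ± 20.3 to 211 ± 8.85 (SD, n = 3). SNAI2, a repressor of BBC3, had a log2 fold change of -0.65 and MYC one of 0.57.

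Of 14 p53 targets outside the family, 13 were tested and all 13 rose, with log2 fold changes from 0.13 to 0.83 and a median of 0.46. In 12 the groups did not overlap. Over genes of at least 1 CPM, the groups were apart with siSFPQ higher in 32.8%. The weakest call was that of PERP (log2 fold change 0.13, adjusted p = 0.0387, edgeR), whose groups overlapped. With DESeq2, and when any library but siControl 3 was left out, 12 of the 13 passed. SPATA18 had 0 counts in every library. FAS, a death receptor, rose from 1336 ± 112 to 2378 ± 14.7 normalized counts, the CDK inhibitor CDKN1A from 11481 ± 302 to 18467 ± 1689, FDXR from 4845 ± 269 to 7734 ± 479 and GDF15 from 323 ± 40.7 to 494 ± 48.9 (SD, n = 3). The list of p53 targets was part of earlier work on these data, so its direction is no independent support. Of 8 targets of ATF4 and CHOP outside the family, 5 rose and 3 did not pass the test (median 0.40). ATF3, a stress-induced transcription factor, rose from 780.2 ± 39.0 to 1371 ± 73.7 normalized counts (SD, n = 3). TRIB3, a pseudokinase, rose by 1.10, the stress sensor SESN2 by 0.74 and CHAC1, which degrades glutathione, by 0.42 on the log2 scale, while DDIT3 itself fell.

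**Figure D4:**
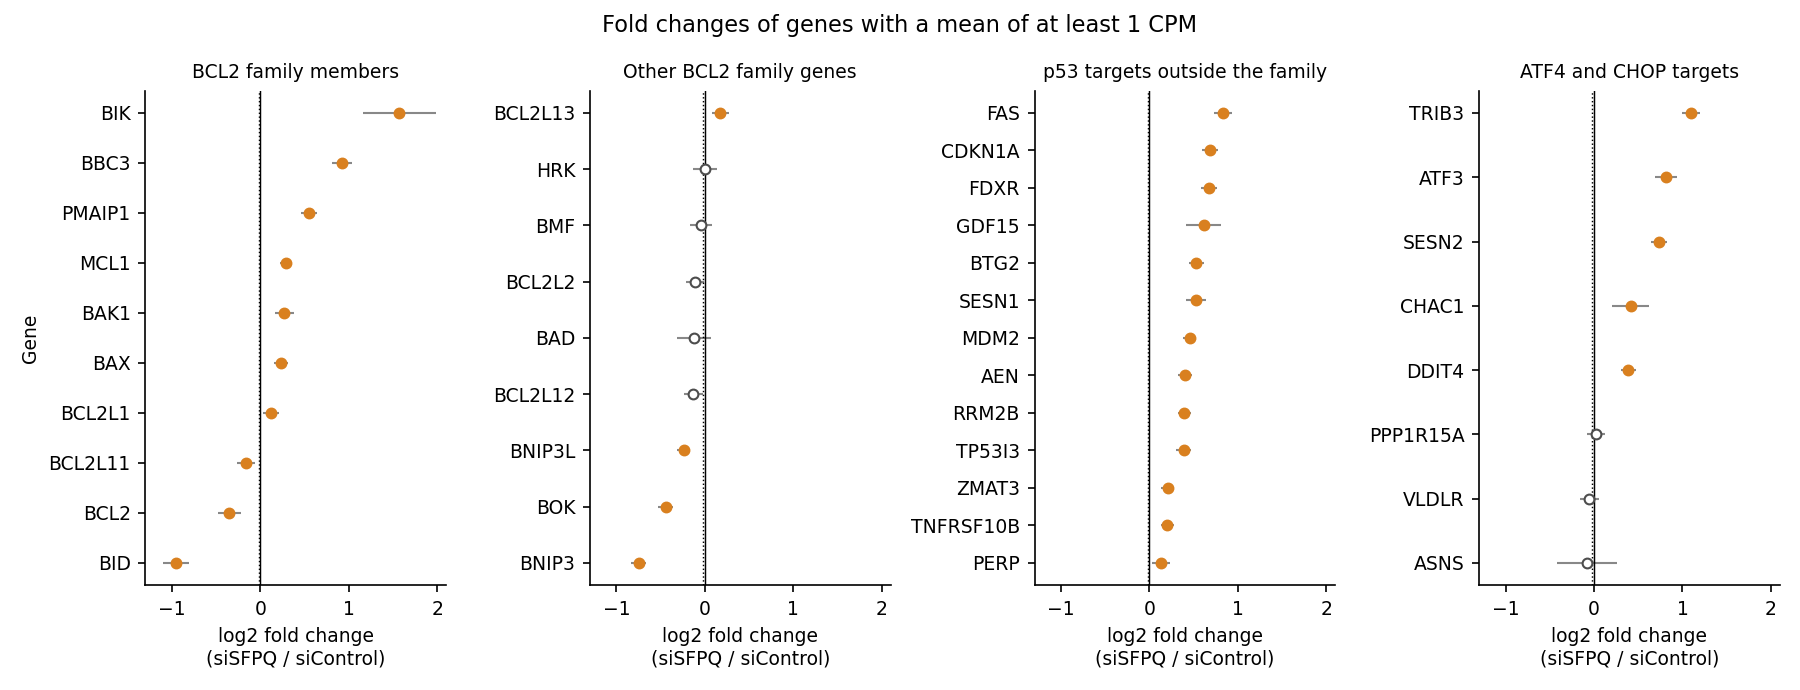
Log2 fold changes (siSFPQ over siControl) of genes with a mean of at least 1 CPM in 4 lists. Bars are 1.96 SE on each side, filled points passed an adjusted p of 0.05, open points did not, the solid line is 0 and the dotted line is the median of all genes of at least 1 CPM. The 10 family genes spread to both sides of 0, and all 13 p53 targets tested lie to the right.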

How the data were processed

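RNA-seq of U-2 OS cells was analysed in 3 siControl and 3 siSFPQ libraries, described by the study as biological replicates. The authors checked paired-end reads with FastQC, aligned them with STAR 2.7.9a to GRCh38 and deposited raw counts per Ensembl gene, and used DESeq2 for their own test. The library kit was a stranded one, but the strand setting of the counting is not given in the sources used here. The count table held 6 sample columns, all used, and 0 unused. Groups came from the sample labels.

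Genes with at least 10 counts in total entered the quasi-likelihood F-test of edgeR 4.0.16 (R 4.3.3), after TMM scaling and without covariates, with Benjamini-Hochberg adjustment over 29022 genes; a stricter call also needed a log2 fold change beyond 1.5. SE were derived from the fold change and its F statistic. The fits were tested on simulated data with far fewer changed genes than were called here. The limit for passing was lowered after DESeq2, an alternative, missed the first one. With 3 libraries per group, an exact permutation test cannot give a p under 0.1, so none is given for single values. A floor of 3 counts is 0.0637 to 0.069 CPM, for counting error only. Lengths, spans and overlaps came from GENCODE 44, which held 99.67% of the identifiers, and promoter windows from RefSeq.

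The members, the gene lists and the tests were chosen with earlier results of these data known. All 10 members and all 13 other family genes could be named, and from each further list up to 4 genes with the largest change among those with an adjusted p under 0.05 and a mean of at least 1 CPM. The value of 1 gene of the list of transcription regulators is not reported here. Protein sequences were not used here. Alternatives were other filters, other scalings, DESeq2 1.42.0, a replicate block, a log2 threshold of 1, the longest transcript and leaving out each library. Libraries with the same number correlated at -0.015, 0.073 and 0.047 in their deviations from the group means, so numbers were not treated as pairs.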

Additional observations from a re-analysis of the deposited data

How the results depend on the processing

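Of 120 fold changes of the 10 genes under 12 alternatives, 114 kept their direction and their side of the threshold, 6 kept the direction and lost the call, and 0 reversed. The 6 were BCL2L1 and BCL2L11, whose log2 fold changes ranged from 0.086 to 0.16 and from -0.20 to -0.10 when each library was left out in turn, and BCL2L11 with library size alone (-0.10). Leaving out libraries moved the number of members past the log2 fold change of 1.5 between 0 and 1 (BIK). It moved the median log2 fold change of the other family genes between -0.12 and -0.0044, of apoptosome genes between 0.044 and 0.15, of regulators between -0.067 and 0.0040, and of ATF4 and CHOP targets between 0.31 and 0.50. The number of apoptosome genes that fell ranged from 0 to 2 and that of turnover genes that rose from 1 to 2. Library size alone shifts the median gene by 0.063, and gave medians of 0.31 for the members, 0.62 for BH3-only genes, 0.018 for the other family genes, 0.18 for apoptosome genes, 0.042 for turnover genes, 0.040 for regulators and 0.52 for p53 targets. With filterByExpr, the other family median was -0.11 and 967 genes rose past the stricter threshold, against 1609, as fewer genes were tested. With no filter, 2 apoptosome genes fell and 2 turnover genes rose. The same numbers do not pair the libraries, and the replicate block, which also gave 2 apoptosome genes that fell and 2 turnover genes that rose, changed no member's call (7 higher and 3 lower). The longest transcript moved 8 of 10 siControl levels by more than 1 SD, with BAX at 102 RPKM against 53.5. Depth limits the genes with few counts, such as BIK among the members and BCL2A1, BCL2L10, BCL2L14, BCL2L15 and BIRC7 outside them.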

Other observations

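Gene span moved with the direction of change, in classes chosen after the values were seen. Of protein-coding genes with a mean of at least 1 CPM, 18.2% of the 2228 genes spanning 100 to 300 kb rose in siSFPQ and 59.1% fell, and of the 580 genes over 300 kb 8.28% rose and 82.2% fell. Of the 2296 genes up to 10 kb, 35.3% rose and 22.9% fell. BCL2, which fell, is the only member over 100 kb, while BID and BCL2L11, which also fell, lie in the class of 10 to 50 kb, where 37.5% of 5523 genes rose and 27.5% fell. The part of span in the values of these genes was not tested.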
